A study of Trachemys scripta with 24 samples.

Results

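The mir-181 family was taken as every deposited entry with the prefix cpi, for the painted turtle Chrysemys picta, and the name mir-181 with any letter, with both arms and each copy kept and each entry counted once. This gave 12 entries, from 6 precursor hairpins, out of 528 cpi entries and 1994 entries in all. The hairpins were 3 copies of mir-181a and 3 copies of mir-181b, each with an entry named 5p and an entry named 3p. Small RNA was sequenced from plasma of female pond sliders (Trachemys scripta), taken into EDTA tubes at 3 times relative to surgical gonadectomy, with 8 libraries for each. T0 lay 24 h before the operation, T1 lay 2.5 h after it and T2 lay 36 h after it. The turtles were clinically healthy adults presented for population control and served as their own baseline, so no group without surgery was part of the design. Food was withheld from before T0, and the study reports that all animals were feeding again before T2. Between T0 and T1 every animal received dexmedetomidine, ketamine, midazolam and alfaxalone, then endoscope-assisted removal of the ovaries, then atipamezole and flumazenil. Surgery, anaesthesia, feeding state and time therefore cannot be told apart in any comparison with T0. T2 and T1 also differ in feeding and in time since surgery and drugs, which cannot be told apart. The study sequenced plasma of 8 turtles, each at the 3 times. The labels name no turtle, so libraries were not paired and replicate numbers are only names. Tests between time points treated libraries of the same animals as independent. Their p-values, also those of permutation, set a difference against the spread between libraries and hold only under that assumption. Plasma is a mixture of RNA from many cells, and fewer cells of a type cannot be told apart from less RNA released per cell.

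MicroRNAs are cut as a pair of strands from a hairpin precursor, and the strand that is kept pairs through its seed, the bases near its 5′ end, with target mRNAs. The members of the miR-181 family share a seed, and in mammals they come from clusters that each hold an a-type and a b-type hairpin or related letters. In mice miR-181a tunes T cell receptor signalling in the thymus, miR-181b dampens NF-κB signalling in endothelium, and the family is also abundant in brain. In vertebrates the strand usually kept is the 5p strand, which is the same in all copies of a letter in mammals, while the 3p strands differ between copies.

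The family was a moderate part of the plasma miRNA counts. It held 11237 of the 3545746 counts on cpi entries, a share of 0.317%, and ranked 26 among 154 cpi families by total. Of these counts 94.6% lay on entries named 3p, 10626 against 611 on entries named 5p. mir-181a took 75.1% of the counts on entries named 3p and mir-181b the rest. A library held between 45296 and 4085848 counts in the deposited rows, and between 5837 and 515184 on cpi entries. The shallowest library was T2 replicate 3, which carried 16 counts of the family, while the others carried up to 1307, with a median of 342 over all 24. No pair of libraries held identical counts.

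The 3 copies of mir-181a had almost the same level on the arm named 3p. cpi-mir-181a-1-3p had 2766 counts over the 24 libraries, cpi-mir-181a-2-3p had 2603 and cpi-mir-181a-3-3p had 2614, which are shares of 34.6%, 32.6% and 32.7%. The 3 copies of mir-181b lay as close together, with 903 counts for cpi-mir-181b-1-3p, 861 for cpi-mir-181b-2-3p and 879 for cpi-mir-181b-3-3p. Ranked among all cpi entries by total, the mir-181a entries stood at 72 to 74, and the mir-181b entries lower. In single libraries with at least 50 counts for the letter, a copy's share ran between 24.7% and 47.9% for mir-181a (23 libraries) and between 25.9% and 43.4% for mir-181b (15 libraries).

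The arm named 5p showed no such evenness. cpi-mir-181a-3-5p had 398 counts, which was 65.1% of all family counts on entries named 5p. cpi-mir-181a-1-5p had 27, 47 and 50 counts over the T0, T1 and T2 libraries. cpi-mir-181a-2-5p had 77 in all. The entries cpi-mir-181b-1-5p, cpi-mir-181b-2-5p and cpi-mir-181b-3-5p had 5, 2 and 5 counts in all, found in 2, 2 and 3 libraries. None of the 12 entries was without a count.

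**Figure D1:**
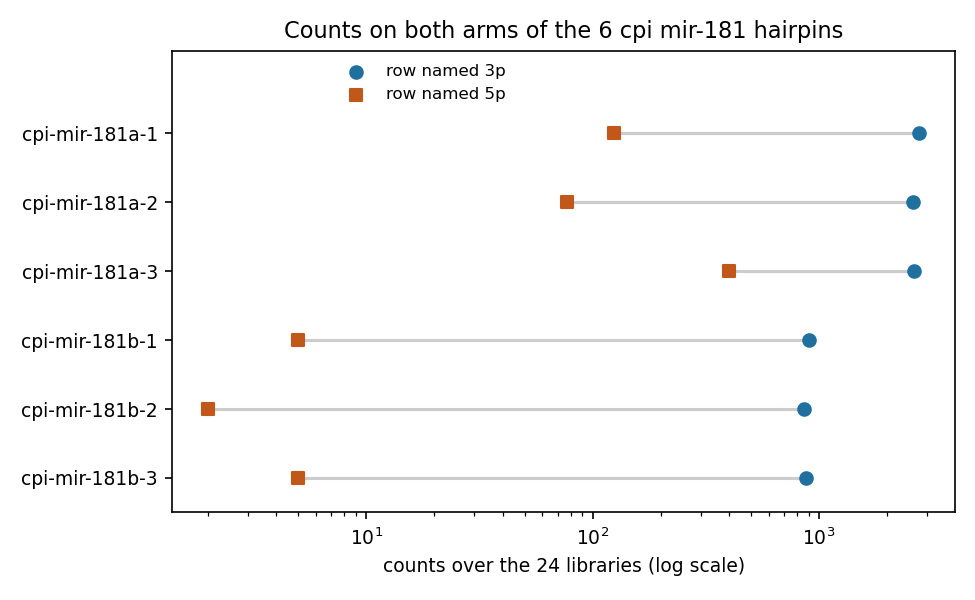
Counts summed over the 24 libraries (horizontal, log scale) for the entry named 3p (circles) and the entry named 5p (squares) of each of the 6 cpi hairpins. All 6 hairpins have more counts on the entry named 3p, the 3 copies of a letter lie close together there, and the entries named 5p spread between 2 and 398 counts.

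The arm that carried the counts was thus the one named 3p in 6 of 6 hairpins, whereas the strand usually kept in vertebrates is 5p. The arm names were therefore compared with textbook main arms in other cpi families. Among 74 hairpins of 33 families with a well-known main arm, the larger entry carried the other arm's name in 66 and the textbook name in 7, and 1, let-7a-4, had 338 counts on each arm. This held for families whose main arm is 5p, such as mir-21 and mir-30, with 36 of 42 hairpins on the other name, and for families whose main arm is 3p, such as mir-1 and mir-206, with 30 of 32. Of the 66, let-7b (46942 counts named 5p, 46955 named 3p) and mir-223 (27955 named 5p, 27461 named 3p) were nearly even. The 7 exceptions were the hairpins of let-7d, let-7e, let-7g and let-7i, which were also the 4 hairpins tagged mirBase on both arms in the table, together with mir-24-2, mir-29a-2 and mir-30e. Of the 44 entries of the mir-181 family over 4 species, 0 carry that tag, and the meaning of the tags is not given in the sources used here. Arm names below are those of the deposited table, and which strand of the mir-181 hairpins they stand for was not tested.

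The reads had been mapped to precursors of 4 reptile species, and the same family was counted again under each. Summed over copies, mir-181a on the arm named 3p had 7983 counts under cpi, 7986 under aca (the anole Anolis carolinensis), 7984 under ami (the alligator Alligator mississippiensis) and 7983 under oha (the king cobra Ophiophagus hannah). The cobra has 2 mir-181a entries on this arm, with 3983 and 4000 counts, against 3 in the other species, so the same total was split over as many copies as a species has. In single libraries the mir-181a sum differed from the cpi sum by at most 2 counts in 22 of 24 libraries for aca, 24 for ami and 24 for oha.

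mir-181b gave 2643 counts under cpi, 2632 under aca, 2665 under ami and 2989 under oha. The cobra entry exceeded the cpi sum by up to 94 counts in a library, while the anole and alligator sums stayed within 2 counts of it in 21 and 18 of 24 libraries. The entries named 5p differed more between species, with 398 counts for mir-181a-3-5p under cpi, 495 under aca and 59 under ami. The copies of a letter on the arm named 3p could not be told apart in these counts, and their sum, a choice made after these values were seen, is given below as the level of the letter.

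**Figure D2:**
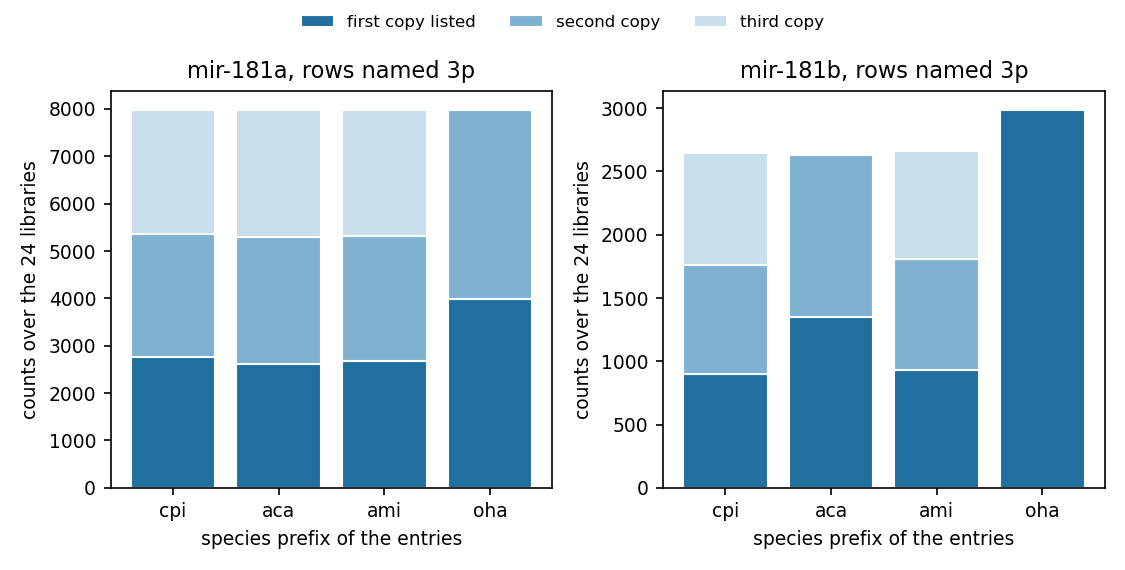
Counts over the 24 libraries (vertical) for mir-181a (left) and mir-181b (right) on the arm named 3p, by the species prefix of the entries, each bar divided by copy. The 4 mir-181a bars end between 7983 and 7986 counts whether a species has 2 or 3 copies, and the mir-181b bar of oha, at 2989, stands above the other species.

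Levels were compared as CPM, the count relative to the total of the library, scaled between libraries by TMM over the entries that passed a filter on low counts. These totals count a read once for each species it was assigned to, so a CPM here is not a share of reads. The filter kept 690 of the 1994 entries and 7 of the 12 members, namely the 6 entries named 3p and cpi-mir-181a-3-5p. The other 5 members, all named 5p, were too sparse, with means between 0.0833 and 5.17 counts per library. Calls required both an adjusted p no higher than 0.1 and a log2 fold change of 1 or more in size.

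mir-181a, its 3 copies summed, was the most abundant part of the family at each time point. At T0 its level in the 8 libraries was 361, 497, 551, 650, 774, 784, 852 and 970 CPM. At T1 it was 322, 327, 432, 459, 463, 479, 533 and 652 CPM. At T2 it was 315, 367, 374, 515, 518, 521, 692 and 829 CPM. All 8 T1 libraries and 7 of 8 T2 libraries lay below the T0 median of 712 CPM, yet the time points overlapped. The highest T1 library, at 652 CPM, lay above the T0 libraries at 361, 497, 551 and 650 CPM. The highest T2 library, at 829 CPM, lay above all T0 libraries but those at 852 and 970 CPM.

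The mean of the mir-181a sum was 458 ± 107 CPM at T1, against 680 ± 202 CPM at T0 (SD, n = 8 each). The log2 fold change by edgeR was −0.57 with a standard error of 0.25 and a 95% interval from −1.08 to −0.06, a ratio of 0.674 (0.475 to 0.958). It did not pass the test (edgeR adjusted p = 0.434). At T2 the mean was 516 ± 174 CPM, and against T0 the log2 fold change was −0.39 (SE 0.25, 95% interval −0.90 to 0.12, edgeR adjusted p = 0.779). T2 against T1 gave 0.18 (SE 0.25, 95% interval −0.33 to 0.68, edgeR adjusted p = 0.948). Both comparisons with T0 use the same T0 libraries.

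The single copies of mir-181a are near-even parts of shared counts, so they were bound to follow their sum. cpi-mir-181a-1-3p averaged 169 ± 42.3 CPM at T1, against 225 ± 70.8 CPM at T0. cpi-mir-181a-2-3p averaged 154 ± 35.9 CPM at T1, against 224 ± 61.9 CPM at T0. cpi-mir-181a-3-3p averaged 145 ± 34.8 CPM at T1, against 215 ± 65.8 CPM at T0. Their log2 fold changes by edgeR for T1 against T0 were −0.42 (SE 0.28), −0.53 (SE 0.26) and −0.57 (SE 0.27), with adjusted p of 0.689, 0.555 and 0.546. For T2 against T0 they were −0.38, −0.53 and −0.20 (edgeR adjusted p 0.839, 0.577 and 0.916). For T2 against T1 they were 0.05, 0.00 and 0.37 (edgeR adjusted p 0.991, 0.994 and 0.883).

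mir-181b, its 3 copies summed, was lower than mir-181a in every library. At T0 its level was 72.6, 102, 166, 191.7, 205.01, 216, 294 and 325 CPM. At T1 it was 43.9, 75.4, 84.1, 165, 204, 210, 229 and 266 CPM. At T2 it was 66.7, 109, 143.04, 153, 157, 195, 200 and 241 CPM. The time points overlapped widely, though the highest library was at 325 CPM at T0, 266 CPM at T1 and 241 CPM at T2. Below the T0 median of 198 CPM lay 4 of 8 T1 libraries and 6 of 8 T2 libraries.

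The mean of the mir-181b sum was 160 ± 81.8 CPM at T1 and 158 ± 54.8 CPM at T2, against 197 ± 86.0 CPM at T0. Its log2 fold change was −0.30 for T1 against T0 (SE 0.35, 95% interval −1.02 to 0.43, edgeR adjusted p = 0.951). It was −0.29 for T2 against T0 (SE 0.36, edgeR adjusted p = 0.922) and 0.01 for T2 against T1 (SE 0.35, edgeR adjusted p = 0.997), a value whose sign changed with the scaling and the filter. Without T1 replicate 5 the mir-181b value for T1 against T0 was −0.11, and without T0 replicate 5 that for T2 against T0 was −0.16. The spread of mir-181b between libraries of a time point was wide, and the intervals leave room for a halving as well as for no difference.

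Of the single mir-181b copies, cpi-mir-181b-1-3p had log2 fold changes by edgeR of −0.34 (SE 0.41) for T1 against T0 and −0.30 (SE 0.41) for T2 against T0, with adjusted p of 0.929 and 0.916. cpi-mir-181b-2-3p had −0.15 (SE 0.44) and −0.12 (SE 0.44), with edgeR adjusted p of 0.956 in both. cpi-mir-181b-3-3p had −0.25 (SE 0.33) and −0.42 (SE 0.33), with edgeR adjusted p of 0.936 and 0.869. Of T2 against T1 the 3 copies gave 0.05, 0.03 and −0.17. cpi-mir-181b-2-3p had no count in T2 replicate 3, where 3 counts, taken here as the limit of counting error behind a count of 0, would be 101.3 CPM.

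cpi-mir-181a-3-5p, the only entry named 5p with enough counts to test, varied most. At T0 its level was 16.5, 18.1, 22.3, 29.3, 29.7, 36.9, 69.2 and 94.5 CPM. At T1 it was 1.68, 10.9, 28.2, 32.3, 36.1, 44.6, 113 and 197 CPM. At T2 it was 4.91, 12.01, 13.3, 17.6, 63.2, 67.5 and 88.9 CPM in 7 libraries, and T2 replicate 1 had no count, which allows up to 6.48 CPM. The T1 range took in the whole T0 range, and a few libraries of each time point stood well above the others. The 67.5 CPM at T2 was 2 counts, in T2 replicate 3, the shallowest library.

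The mean of cpi-mir-181a-3-5p was 57.9 ± 65.3 CPM at T1 and 33.4 ± 34.2 CPM at T2, against 39.5 ± 27.8 CPM at T0. Its log2 fold change by edgeR was 0.54 for T1 against T0 (SE 0.74, adjusted p = 0.936), −0.33 for T2 against T0 (SE 0.76, adjusted p = 0.943) and −0.87 for T2 against T1 (SE 0.76, adjusted p = 0.883). The sign for T1 against T0 rested on T1 replicate 5, without which the value was −0.08.

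**Figure D3:**
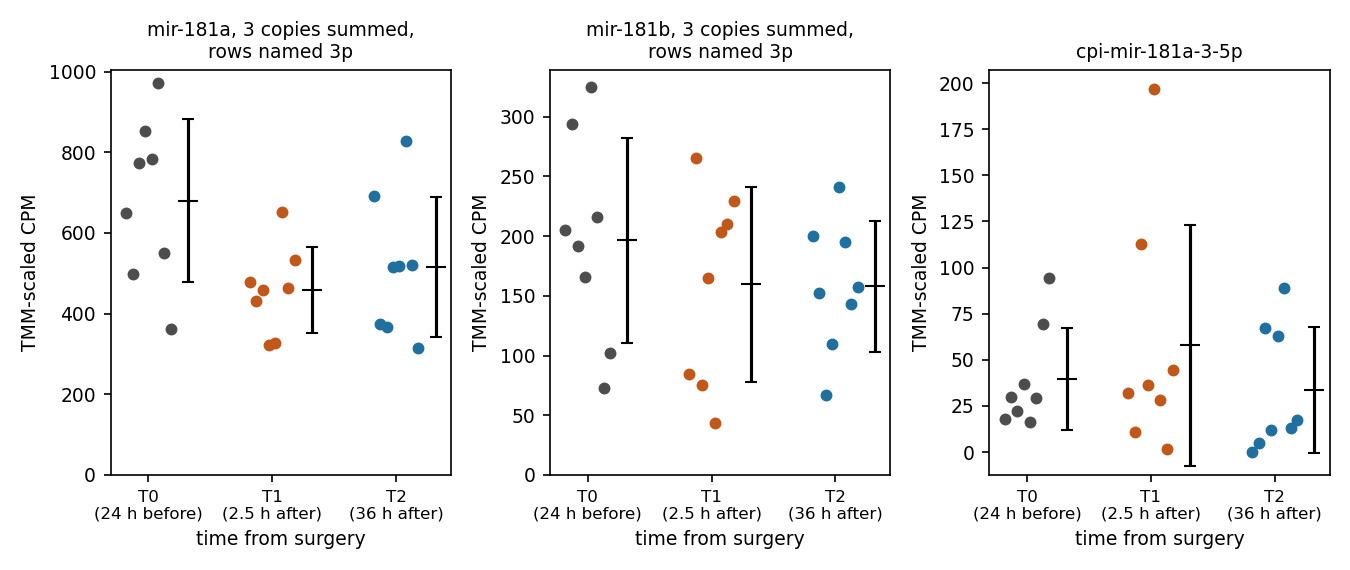
TMM-scaled CPM (vertical) of the mir-181a sum, the mir-181b sum and cpi-mir-181a-3-5p in each library (points) at T0, T1 and T2, with the mean and SD of the 8 libraries as a bar beside them, which can reach below 0 where single libraries are high. All 8 T1 points of mir-181a lie below the T0 median of 712 CPM but overlap the lower T0 libraries, mir-181b covers overlapping ranges, and cpi-mir-181a-3-5p has single high libraries.

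Over the whole family, none of the 7 members tested was called in any comparison. For T1 against T0, where 0.58% of all entries tested were called (4 of 690), 0 members were called and 1, cpi-mir-181a-3-3p, had an unadjusted p under 0.05, against 8.99% of all entries. For T2 against T0 no entry was called (0%), and 0 members had an unadjusted p under 0.05, against 8.26% of all entries. For T2 against T1 no entry was called (0%), and 0 members had an unadjusted p under 0.05, against 4.78% of all entries. DESeq2, run on all 1994 entries, also called 0 of 12 members in each comparison, beside 0.802% (16 entries), 0.0502% (1 entry) and 0% of all entries for T1 against T0, T2 against T0 and T2 against T1. For T1 against T0 the members left out by the edgeR filter had no adjusted p in DESeq2, so they could not be called there. At an unadjusted p under 0.05 DESeq2 had 2 of 12 members for T1 against T0, beside 5.12% of all entries, and 0 in the other comparisons, beside 4.41% and 2.66%.

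The direction was similar across the members, which share reads and are not independent of each other. For T1 against T0, 6 of 7 members had a log2 fold change below 0, with a median of −0.34, while 42.5% of all entries tested were below 0, with a median of 0.08. For T2 against T0, 7 of 7 were below 0, with a median of −0.33, against 51.4% and a median of −0.03 over all entries. For T2 against T1, 2 of 7 were below 0, with a median of 0.03, against 61.9% and a median of −0.11. These counts were the same with DESeq2 size factors and with library totals alone, but they moved with single libraries. For T2 against T1 the count ran from 1 of 7 (without T1 replicate 2) to 6 of 7 (without T1 replicate 5), and it was 4 of 7 with the 2 time points alone. For T1 against T0 it ran from 5 of 7 (without T0 replicate 5) to 7 of 7 (without T1 replicate 5), and the median was −0.17 without T1 replicate 5. For T2 against T0 it was 6 or 7 of 7, and the median was −0.18 without T0 replicate 5.

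**Figure D4:**
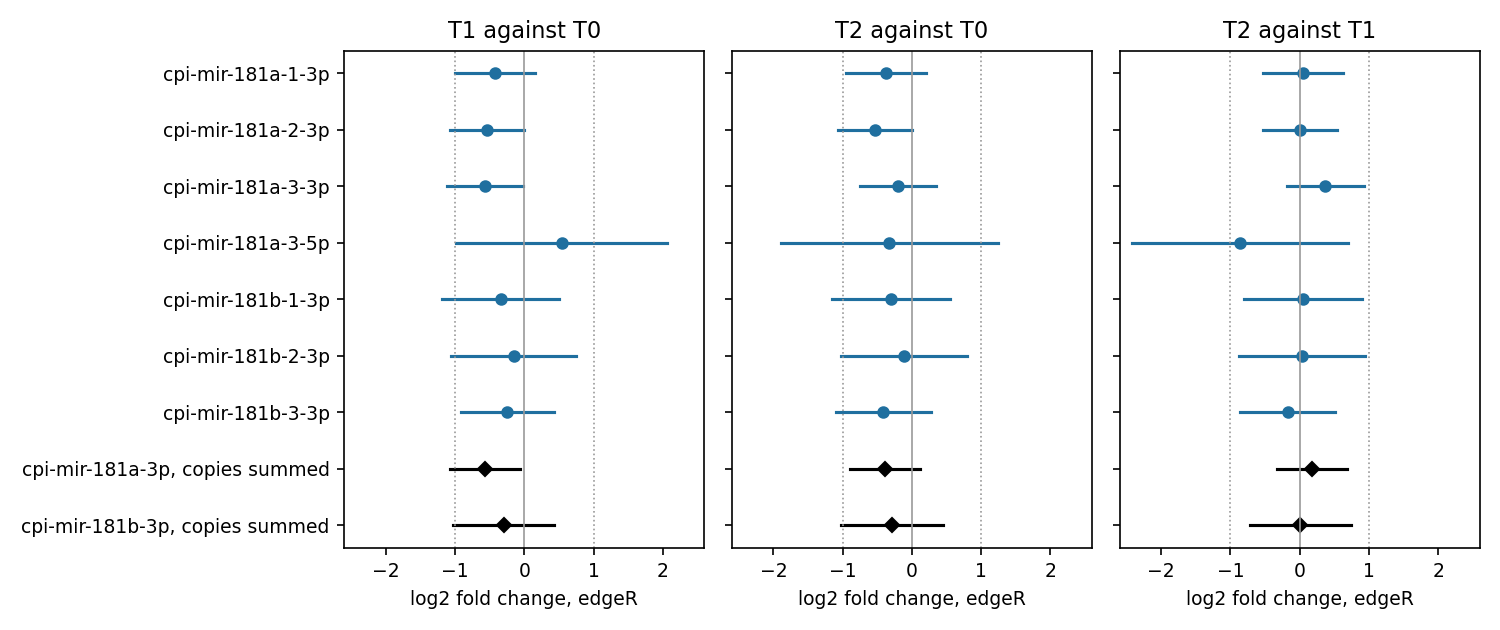
Log2 fold change by edgeR (horizontal) with its 95% interval for the 7 members tested (circles) and for the letter sums on the arm named 3p (diamonds), in the 3 comparisons. Dotted lines mark log2 fold changes of 1 in size. The mir-181a sum at T1 against T0, at −0.57 (−1.08 to −0.06), is the only sum whose interval lies on 1 side of 0, and cpi-mir-181a-3-5p has the widest intervals.

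The balance between the paralogs was compared within libraries, where the library total cancels. The ratio of mir-181a to mir-181b counts on the arm named 3p had a lowest, median and highest value of 1.69, 3.79 and 7.58 at T0, 1.62, 2.76 and 7.44 at T1, and 2.0, 3.55 and 5.5 at T2. mir-181a exceeded mir-181b in all 24 libraries. The mean log2 ratio was 1.69 ± 0.82 at T1 and 1.69 ± 0.50 at T2, against 1.86 ± 0.65 at T0 (SD, n = 8 each). By two-sided exact permutation tests over 12870 assignments, T1 minus T0 was −0.16 (p = 0.657), T2 minus T0 was −0.17 (p = 0.570) and T2 minus T1 was −0.00362 (p = 0.991), with adjusted p of 0.985, 0.985 and 0.991. With a library left out the differences ran from −0.33 to −0.02 for T1 minus T0 (weakest without T0 replicate 7), from −0.33 to −0.02 for T2 minus T0 (weakest without T0 replicate 7) and from −0.15 to 0.16 for T2 minus T1.

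Only cpi-mir-181a-3 had enough counts on its lesser arm, at least 10 on average, for a test of the arm ratio. Its entry named 3p holds only the part of the mir-181a counts given to this copy, since the copies could not be told apart. The shares and ratios below therefore depend on that split and are not the arm balance of a single hairpin. The entry named 5p made up a lowest, median and highest share of 5.88%, 10.7% and 48.9% of both arms at T0, 1.06%, 18.0% and 69.5% at T1, and 0%, 11.4% and 29.8% at T2. In T1 replicate 5 the entry named 5p had 41 of 59 counts (exact 95% interval 56.1% to 80.8%). The 3 copies of mir-181a together had 67 counts named 3p in that library, so the 41 exceeded only the part given to this copy. In T0 replicate 8 the entry named 5p had 23 of 47 counts (34.1% to 63.9%), while the copies of mir-181a together had 92 counts named 3p. T2 replicate 1 had 0 of 113 counts, which allows a share of up to 2.65% by the limit of 3 counts, or 3.21% as the exact 95% upper bound. Reads without molecular identifiers give intervals for counting error only.

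Between time points this ratio of the 2 cpi-mir-181a-3 entries did not pass the test. The mean log2 ratio of the entry named 5p to the entry named 3p was −2.14 ± 2.11 at T1 and −3.35 ± 2.17 at T2, against −2.59 ± 1.33 at T0 (SD, n = 8 each). The differences were 0.45 for T1 minus T0 (p = 0.625), −0.76 for T2 minus T0 (p = 0.439) and −1.21 for T2 minus T1 (p = 0.284) by two-sided exact permutation tests, each with an adjusted p of 0.625. Without T1 replicate 5 the first of these was −0.03, and without T2 replicate 1 the others were −0.12 and −0.57.

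At T0 and T1 the libraries highest in cpi-mir-181a-3-5p were shallow and low in mir-181b, and at T2 they were mixed. At T0 the 2 highest were replicates 8 and 7, with 58811 and 50811 counts on cpi entries, and these also had the lowest mir-181b sums, 102 and 72.6 CPM. T0 replicates 4 and 2 were shallower still, with 41203 and 45957 counts, but had only 36.9 and 29.7 CPM of cpi-mir-181a-3-5p. Their mir-181b sums were 166 and 294 CPM. At T1 the 2 highest were replicates 5 and 3, with 50864 and 34519 counts on cpi entries and the lowest mir-181b sums, 43.9 and 75.4 CPM. At T2 the highest, replicate 6, had 80512 counts on cpi entries and a mir-181b sum of 195 CPM. The next, replicate 3, was the shallowest library, with 5837 counts and the lowest T2 mir-181b sum, 66.7 CPM, while replicate 5 was deep, with 182329 counts and the highest, 241 CPM.

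**Figure D5:**
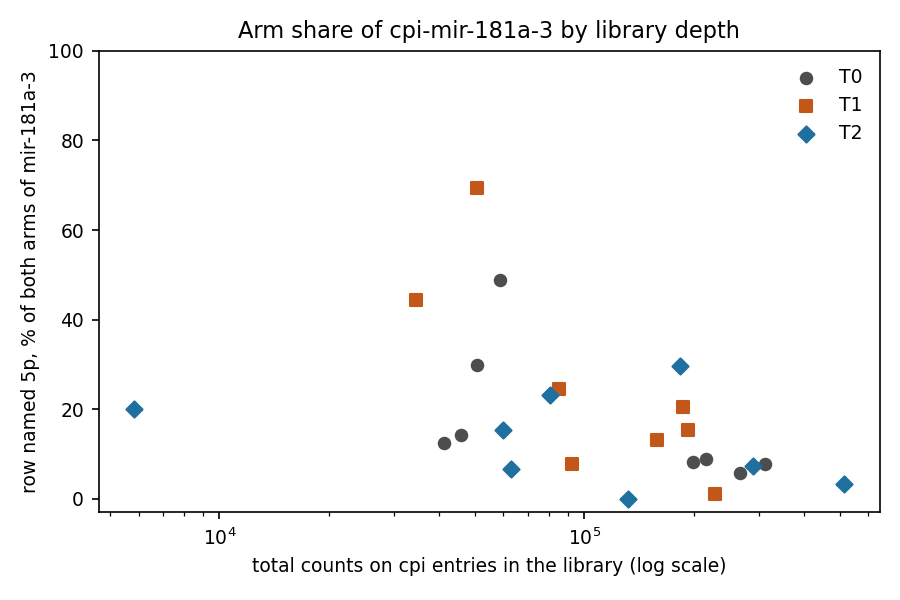
Share of the entry named 5p in the counts on both arms of cpi-mir-181a-3 (vertical, percent) against the total counts on cpi entries of the library (horizontal, log scale), by time point. The entry named 3p holds only the part of the mir-181a counts given to this copy. Of the libraries shown, T1 replicate 5 (69.5%) and T0 replicate 8 (48.9%) stand highest, in libraries of 50864 and 58811 counts, and the library with the fewest counts, T2 replicate 3, rests on 10 counts. T0 replicates 4 and 2, with fewer counts than those 2 libraries (41203 and 45957), have shares of 12.5% and 14.3%.

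Across the 8 libraries of each time point, 18 relations were computed with exact permutation p over 40320 pairings. Levels entered as log2 of CPM + 1, and the total of cpi counts as its log2. The mir-181a and mir-181b sums had Pearson's r of 0.45, 0.44 and 0.49 at T0, T1 and T2 in that order (exact p = 0.257, 0.255 and 0.218), with Spearman's rho of 0.33, 0.31 and 0.48 (exact p = 0.428, 0.462 and 0.243). All had a Benjamini-Hochberg adjusted p of at least 0.355, and without the 2 libraries farthest from the median r was 0.66, 0.63 and 0.61. The mir-181b sum and cpi-mir-181a-3-5p had r of −0.85 at T0 (exact p = 0.0109, adjusted 0.173), −0.73 at T1 (exact p = 0.0363, adjusted 0.183) and −0.19 at T2 (exact p = 0.641). Spearman's rho for that pair was −0.76 at T0 (exact p = 0.0368, adjusted 0.312), −0.69 at T1 (exact p = 0.0694) and −0.02 at T2 (exact p = 0.977). Without the 2 libraries farthest from the median of the mir-181b sum r was −0.45, −0.32 and −0.12, so the size of r depended on them. Leaving them out also narrows the range, which can weaken r by itself.

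The entries cpi-mir-181a-3-3p and cpi-mir-181a-3-5p had r of −0.79 at T0 (exact p = 0.0192, adjusted 0.173). At T1 r was −0.42 (exact p = 0.296) and at T2 it was 0.13 (exact p = 0.756). Spearman's rho was −0.64, −0.40 and 0.36 in the order of time (exact p = 0.0962, 0.327 and 0.389). At T0 r was 0.03 without the 2 libraries farthest from the median of cpi-mir-181a-3-3p, so here too its size depended on them, over a narrower range. The total of cpi counts and cpi-mir-181a-3-5p had r of −0.73 at T0 (exact p = 0.0440, adjusted 0.183), −0.69 at T1 (exact p = 0.0544) and −0.43 at T2 (exact p = 0.276), with rho of −0.74, −0.69 and −0.45 (exact p = 0.0458, 0.0694 and 0.268). Without the 2 farthest libraries those r were −0.75, −0.28 and −0.09. The total of cpi counts and the mir-181b sum had r of 0.49, 0.60 and 0.71 over the time points in the same order (exact p = 0.224, 0.124 and 0.0609), with rho of 0.43, 0.52 and 0.36 (exact p = 0.299, 0.197 and 0.389), and r was 0.54, −0.25 and 0.33 without the 2 farthest libraries. The total and the mir-181a sum had r of 0.50, 0.53 and 0.21 (exact p = 0.206, 0.1803 and 0.630), with rho of 0.21, 0.60 and 0.40 (exact p = 0.619, 0.132 and 0.327), and r was 0.85, 0.62 and 0.20 without the 2 farthest libraries. None of the 18 relations passed the adjustment at 0.1.

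Of 191 cpi entries outside the family that passed the filter, the levels of the following were most like the summed level of the family, by Spearman's correlation over the 24 libraries, given as a description. They were cpi-mir-22-5p with 0.57, cpi-mir-1677b-5p with 0.55, cpi-mir-27a-5p with 0.49, cpi-mir-24-2-3p with 0.47 and cpi-mir-1388-5p with 0.46. The median over the 191 entries was −0.02 and the range ran from −0.68 to 0.57. The libraries share TMM scaling and differ in depth, which all entries have in common.

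Blood cell and tissue miRNAs were counted beside the family. The white cell list (mir-142, mir-146, mir-150, mir-155 and mir-223) had 10 of 16 cpi entries tested, the red cell list (mir-144, mir-451 and mir-486) 2 of 4, the blood vessel list (mir-126, mir-221 and mir-222) 4 of 8 and the brain list (mir-9, mir-124 and mir-128) 6 of 19. The muscle list (mir-1, mir-133, mir-206 and mir-499) had 6 of 18 entries tested and the liver list (mir-122, mir-192 and mir-194) 5 of 8. None of these tested entries was called higher or lower by edgeR in any comparison. The study itself reported mir-499-3p, of a family in the muscle list, as higher at T1 and T2 than at T0. It did so by DESeq2 on these libraries and by qPCR. Whether that entry was among the 6 muscle entries tested here is not given. For T1 against T0 the median log2 fold change was −0.16 for the white cell list, 0.01 for the red cell list, −0.05 for the blood vessel list, −0.19 for the brain list, −1.0003 for the muscle list and 0.36 for the liver list, against −0.34 for the family. For T2 against T0 the medians were −0.27, −0.45, −0.06, 1.44, −1.60 and −0.31 in the same order of lists, against −0.33 for the family. For T2 against T1 they were −0.0003, −0.46, −0.18, 1.499, −0.94 and −0.60, against 0.03 for the family. Counts of list entries with an unadjusted edgeR p under 0.05 follow, beside the share over all entries tested. For T1 against T0 they were 1 of 4 blood vessel, 2 of 6 brain and 1 of 6 muscle entries, beside 8.99%. For T2 against T0 they were 2 of 10 white cell, 1 of 6 brain and 3 of 6 muscle entries, beside 8.26%. For T2 against T1 they were 1 of 6 brain, 2 of 6 muscle and 1 of 5 liver entries, beside 4.78%. No other list had such an entry. A median over entries weighs sparse and abundant entries alike. The median summed levels at T0 were 5164, 6300, 1726, 12548, 1744 and 10308 CPM in the same order of lists. At T1 they were 3679, 5547, 2803, 9425, 1407 and 17377 CPM, and at T2 they were 5316, 5274, 1753, 11381, 1813 and 9129 CPM. From T0 to T2 the direction for the white cell, blood vessel, brain and muscle lists differed from that of their median log2 fold change. From T0 to T1 this held for the red cell and blood vessel lists, and from T1 to T2 for the white cell and muscle lists. From T1 to T2 it held for the mir-181 family too, whose median summed levels were 907, 709 and 647 CPM at T0, T1 and T2.

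The red cell list had a summed level of 1224 to 26665 CPM at T1 and 2374 to 15990 CPM at T2, against 1779 to 13782 CPM at T0. The summed level of the red cell list thus varied widely between libraries of the same time point. The white cell list had 3336 to 8442 CPM at T1 and 2465 to 9737 CPM at T2, against 2370 to 7545 CPM at T0. The summed family had 562 to 834 CPM at T1 and 506 to 1070 CPM at T2, against 579 to 1203 CPM at T0. The part of blood cell RNA in the levels of mir-181 was not tested.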

How the data were processed

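Small RNA of 24 plasma libraries, 8 per time point, was grouped by the labels. The authors discarded reads under 14 nt, clipped adapters with Cutadapt (maximum error rate 0.15), aligned with BWA 0.7.12 to reptile precursors of miRBase 22.0 and deposited whole-number counts per mature entry, without normalization. No genome coordinates belong to these counts. The labels name the miRNeasy kit for extraction. The study compared this kit with that of A&A Biotechnology before sequencing and reports that it chose the A&A Biotechnology kit. The labels and the study thus differ, and the kit behind these libraries could not be settled. The 3988 deposited rows hold 1994 entries, each with a second row of identical counts that was dropped.

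Counts were filtered with filterByExpr and normalized by TMM. They were tested with the quasi-likelihood test of edgeR 4.0.16 (R 4.3.3) in 1 model over 24 libraries, with Benjamini-Hochberg adjustment over 690 entries. The letter sums had a separate fit with its own filter, TMM factors and adjustment over 679 entries, so their CPM are not exact totals of the copies. The common dispersion was 0.453. Ratios within a library used a pseudocount of 0.5 and two-sided exact permutation tests. Intervals of shares are exact binomial intervals. The fits were tested on simulated data. Alternatives were DESeq2 1.42.0, its size factors, no TMM, other filters (none, or 10 counts in 8 libraries), all deposited rows, cpi entries alone, sums over species or over copies, 2 time points alone, 1 surrogate variable (sva 3.50.0), other pseudocounts and count minimums, unadjusted p, and each library left out. Python 3.11.15, numpy 2.4.6, scipy 1.17.1, pandas 2.3.3 and matplotlib 3.10.9 were used.

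Every member was named or counted, with levels for those averaging at least 10 counts, and 5 entries outside the family were named by their correlation with it (log2 of CPM + 1). The members, lists and tests were chosen with earlier results of these data known, and the letter sums and some correlations were added after the values of the members had been seen.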

Additional observations from a re-analysis of the deposited data

Results flagged for a closer look

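In T0 replicate 7, the summed entries of mir-181a named 5p had 169 CPM, far above the next T0 library at 90.2 CPM. The gap was 0.546 of the range of the 8 libraries, over Dixon's limit for that number. This was 1 of 36 groups of 8 libraries examined, and chance gives about 1 in 20. Without this library the T2 against T0 log2 fold change of that sum was 0.22, against −0.20 with it.

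The table also lists letter c of the family, which has no cpi entry. Over all libraries, aca-mir-181c-3p had 114 counts, spread as 39, 37 and 38 over T0, T1 and T2 and found in 21 libraries, and aca-mir-181c-5p had 10. oha-mir-181c-3p had 27 counts, 16 of them in a single library, and oha-mir-181c-5p had 12. All are small beside the 7983 counts of mir-181a, and whether they share reads with letters a and b was not tested.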

How the results depend on the processing

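The count of members called was 0 in all 3 comparisons under every alternative that was run, and so were the counts of hairpins and letter pairs whose ratio differed. With at least 50 counts on average no hairpin was left for the arm ratio. For T1 against T0 the mir-181a sum ran from −0.66 to −0.43 with a library left out (edgeR adjusted p from 0.305 to 0.737, the highest p without T1 replicate 5) and from −0.60 to −0.50 under the other settings (adjusted p from 0.300 to 0.631). Log2 fold changes of T2 against T1 that crossed 0 were all near it. That of cpi-mir-181a-2-3p was −0.0123 with at least 10 counts in 8 libraries, −0.00143 with all deposited rows, −0.02695 with cpi entries alone and −0.01344 with the 2 time points alone. That of cpi-mir-181b-2-3p was −0.00111 with the 2 time points alone. That of the mir-181b sum was −0.01936 with DESeq2, −0.02792 with its size factors, −0.01468 without TMM, −0.04476 without a filter, −0.05305 with at least 10 counts in 8 libraries and −0.04057 with cpi entries alone. The cause was not tested.

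With a library left out, values of T2 against T1 ran from −0.06446 to 0.21 for cpi-mir-181a-1-3p, −0.13 to 0.15 for cpi-mir-181a-2-3p, −0.13 to 0.28 for cpi-mir-181b-1-3p, −0.11 to 0.18 for cpi-mir-181b-2-3p, −0.29 to 0.02487 for cpi-mir-181b-3-3p and −0.18 to 0.13 for the mir-181b sum. For the mir-181b sum they ran from −0.39 to −0.11 for T1 against T0 and from −0.41 to −0.16 for T2 against T0. Those of T1 against T0 ran from −0.08046 to 0.87 for cpi-mir-181a-3-5p, −0.31 to 0.00615 for cpi-mir-181b-2-3p and −0.01553 to 0.80 for the mir-181a sum named 5p. Those of T2 against T0 ran from −0.84 to 0.0031 for cpi-mir-181a-3-5p (highest without T0 replicate 8), −0.27 to 0.13 for cpi-mir-181b-2-3p and −0.45 to 0.22 for the mir-181a sum named 5p.

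No paired analysis was possible because the labels name no turtle. Depth limits the entries named 5p most. T2 replicate 3, with 5837 counts on cpi entries, weighed as much as any other library in the means, ratios and correlations. Without it the ratio difference of the cpi-mir-181a-3 entries was −0.99 for T2 minus T0 and −1.43 for T2 minus T1. Without T2 replicate 3 the mir-181a sum gave −0.53 for T1 against T0 and −0.32 for T2 against T0.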
